A study of Mus musculus with 7 samples.

Results

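ATAC-seq, which reads out accessible DNA by where a transposase can insert, was compared across 7 mouse libraries, and 10180 regions had a peak in the embryonic stem cells (ESCs) and in none of the other libraries. The regions were selected on the presence and absence of peaks. Touching or overlapping peaks of all libraries were merged into 104346 regions, of which 26055 held an ESC peak. The ESC-alone regions were 9.76% of all merged regions and 39.1% of the regions with an ESC peak. A further 12590 regions held a peak in ESCs and on day 0, and 3285 held a peak in ESCs and on at least 1 doxycycline day but not on day 0. These 2 classes served for comparison. Of the ESC-alone regions, 10159 lie on chromosomes 1 to 19, X and Y, and the other 21 lie on unplaced sequence and enter only the count.

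The 6 MEF-derived libraries came from mouse embryonic fibroblasts that carry tetO-Pou5f1,-Klf4,-Sox2,-Myc in Col1a1 and the doxycycline-controlled activator rtTA*M2 in ROSA26. The Day0 library was untreated, and the Day1, Day2, Day3, Day6 and Day9 libraries had doxycycline at 2 µg/ml for that number of days. The ESC library came from the untreated Bruce-4 line, 1 established line, for which the labels enter the genotype of the fibroblasts. The doxycycline cultures were mixtures in which only part of the cells reprograms, and the media differed between fibroblasts and ESCs. Per the methods, reprogramming cultures were moved to ESC medium around day 8, so the medium also changed within the doxycycline series. Every time-point had 1 library, so cell type, culture, library and time-point cannot be told apart, and no p-value between libraries was possible. The number of reads was not given, and a missing peak says only that no peak was called. Peak lists held between 27074 peaks (ESCs) and 61241 peaks (Day0). The labels were checked against marker genes. A peak within 1000 bp of a transcription start site (TSS) was found at 8 of 10 fibroblast markers on Day0 and at 2 of 10 in ESCs. It was found at 5 of 10 ESC markers in either library, and Sox2 had no ESC peak within 50 kb. Within 50 kb the ESC markers had 37 peaks on Day0 and 30 in ESCs, and the fibroblast markers 80 and 17. Peaks at the ESC markers therefore did not tell the libraries apart.

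Mouse ESCs are held in the pluripotent state by a network of transcription factors in which Oct4 (Pou5f1) and Sox2 bind side by side at a composite Oct-Sox site, with Nanog, Esrrb, Klf, Tfcp2l1 and Zic proteins at many of the same enhancers. Enhancers mostly lie away from promoters and are open in few cell types, whereas the promoters of broadly used genes are open in most. Much of the mammalian genome derives from transposable elements, and some of their copies carry binding sites for these factors and are active in ESCs.

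Sequences are shown for the elements that carry the patterns described further on. Elements cloned upstream of Pou5f1 (chr17:35503899-35504191) and Upp1 (chr11:9116978-9117259, mm10, plus strand) in the study are shown because the ESC peak over each was an ESC-alone region. The study describes both elements as accessible after day 3 of reprogramming. Only peak lists were read here, without signal, so the class does not mean that these elements open in ESCs only. The capitals mark the Oct-Sox core, the Sox letters and the Klf letters on either strand.
Pou5f1 element: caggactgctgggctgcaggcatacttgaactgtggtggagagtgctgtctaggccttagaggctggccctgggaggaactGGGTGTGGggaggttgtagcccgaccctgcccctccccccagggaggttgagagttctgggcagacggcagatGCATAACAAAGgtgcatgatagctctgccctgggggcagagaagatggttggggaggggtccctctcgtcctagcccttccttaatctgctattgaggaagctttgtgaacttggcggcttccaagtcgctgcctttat
Upp1 element: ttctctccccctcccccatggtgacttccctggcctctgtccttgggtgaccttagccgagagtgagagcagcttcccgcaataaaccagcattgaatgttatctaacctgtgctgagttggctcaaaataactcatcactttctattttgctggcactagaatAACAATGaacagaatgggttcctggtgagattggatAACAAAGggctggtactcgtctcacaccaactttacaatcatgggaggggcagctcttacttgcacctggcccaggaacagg
The Pou5f1 element, in the upstream enhancer of the Oct4 gene, held 1 Oct-Sox core, 1 Sox match that overlaps it and 1 Klf match. The Upp1 element held 2 Sox matches and no match to the Oct-Sox core. The next windows, 200 bp at the peak centre, show the Oct-Sox core near Htr5a (chr5:27819352-27819551) and the Esrrb letters near Nr0b1, which encodes Dax1, a nuclear receptor of the ESC network (chrX:86187385-86187584), and near Ranbp17 (chr11:33537597-33537796). The Htr5a and Ranbp17 windows are from the widest such members outside exons in unmasked single-copy sequence, the Nr0b1 window is at a core pluripotency gene, and all were chosen after the values were seen. An Oct-Sox member near Fhit with a peak as wide as that near Htr5a (726 bp) is not shown. Its letters around the core resemble those of a repeat family described further on. The windows shown are given on the plus strand with the motif letters in capitals.
Htr5a window: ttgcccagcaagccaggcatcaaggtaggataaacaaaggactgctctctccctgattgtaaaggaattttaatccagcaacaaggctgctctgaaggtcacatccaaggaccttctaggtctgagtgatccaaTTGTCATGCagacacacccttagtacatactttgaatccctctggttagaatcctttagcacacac
Nr0b1 window: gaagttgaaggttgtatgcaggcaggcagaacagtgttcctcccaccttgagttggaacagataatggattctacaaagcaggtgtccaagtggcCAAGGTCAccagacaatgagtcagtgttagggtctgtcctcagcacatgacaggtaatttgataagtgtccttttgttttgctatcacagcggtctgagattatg
Ranbp17 window: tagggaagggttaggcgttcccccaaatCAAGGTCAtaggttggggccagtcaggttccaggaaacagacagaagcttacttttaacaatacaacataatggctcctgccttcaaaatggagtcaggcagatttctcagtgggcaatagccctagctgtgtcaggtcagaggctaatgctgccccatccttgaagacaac
None of the 200 bp or cloned stretches holds both the Oct-Sox core and the Esrrb letters. Over all single-copy members, 3 windows held both.

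The ESC-alone regions were mostly distal. The midpoint of the ESC peak lay within 1000 bp of a protein-coding TSS in 8.13% of them (95% exact interval 7.61 to 8.68%), in 74.7% of the regions shared with day 0 and in 15.0% of those shared with doxycycline days only. The difference from all other ESC regions was -54.2 percentage points (95% Newcombe interval -55.1 to -53.3), with a lower share on 20 of 20 chromosomes (1 to 19 and X). The difference from the doxycycline-only class was -6.85 points (-8.21 to -5.55), again on 20 of 20 chromosomes. The median distance to a TSS was 26374 bp for ESC-alone regions, 113 bp for those shared with day 0 and 16216.5 bp for those shared with doxycycline days. Regions with no ESC peak, taken at the middle of the merged region, had 9.60% TSS-proximal and a median of 20600 bp. All merged regions had 17.5% and 16754 bp. A distal position is therefore not particular to the ESC-alone regions. Of the ESC-alone regions, 48.4% were intergenic, 39.0% intronic and 4.40% exonic outside the TSS-proximal class. All intervals here cover counting error only, since regions of 1 library share that library. The ESC peak was 308 bp wide at the median (quartiles 219 and 472 bp, range 200 to 1692 bp), against 495 bp and 377 bp in the comparison classes. Width goes with how far a peak passes the calling threshold, which the rule used, so it is given as a description. At the smallest possible width of 200 bp lay 16.6% of the members.

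**Figure D1:**
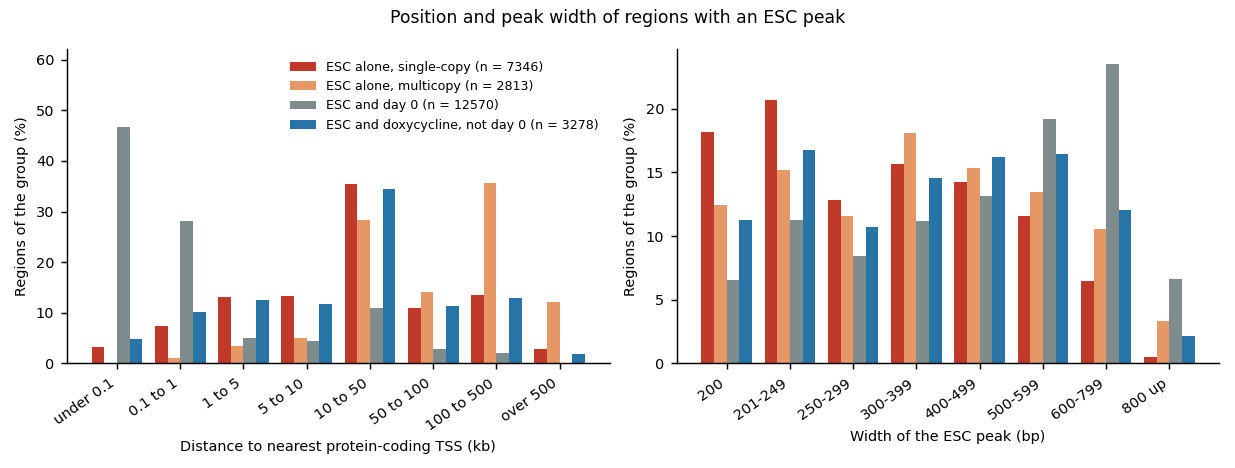
Distance from the ESC peak centre to the nearest protein-coding TSS in kb (left) and width of the ESC peak in bp (right), as the percentage of each group's regions in each bin. Bars are counts over regions of 1 ESC library, without error bars. Single-copy and multicopy ESC-alone regions lie mostly beyond 10 kb from a TSS, and regions shared with day 0 mostly within 1 kb.

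Many of the members lay in repeated sequence, by which the plot of distances splits them. Over 50% of the 200 bp window was repeat-masked in the reference genome in 43.6% of ESC-alone regions (42.6 to 44.6%), in 1.15% of regions shared with day 0 and in 16.99% of regions shared with doxycycline days. The excess over all other ESC regions was 39.2 points (38.2 to 40.2), on 20 of 20 chromosomes. The window was also read as 16 stretches of 50 bases, the length to which reads were trimmed, and called multicopy where under 50% of them occurred once in the genome. By this measure 2813 members (27.7%, 26.8 to 28.6%) were multicopy, and in 1897 no stretch was unique. The share was 1.29% in regions shared with day 0 and 7.96% in regions shared with doxycycline days, and the excess over all other ESC regions was 25.02 points (24.1 to 25.9), on 20 of 20 chromosomes. In the other 7346 members, called single-copy here, 24.1% were still repeat-masked, against 1.01% and 11.04% of the single-copy regions of the comparison classes. Every stretch was unique in only 5956 members (58.6%), so regions called single-copy can still hold repeated stretches. Reads were paired, so a read whose own 50 bases are repeated can still be placed by its mate. Whether reads with several matches were filtered is not given in the sources used here, and their part in the result was not tested.

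The same count was made in every library. Multicopy regions were 12.4% of the ESC regions and between 1.04% (Day0) and 2.67% (Day2) of the regions of the 6 other libraries. Among regions with a peak in 1 library alone, the repeat-masked share was 43.6% in ESCs, 6.38% on Day0, 9.65% on Day1, 19.2% on Day2, 10.4% on Day3, 8.69% on Day6 and 10.5% on Day9. Among these regions of 1 library alone, Day2 stood highest of the MEF-derived libraries by both measures, with 12.04% of its 1578 own regions multicopy, but below ESCs. Over all regions of a library, the masked share was 4.53% on Day2 and 4.68% on Day3.

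**Figure D2:**
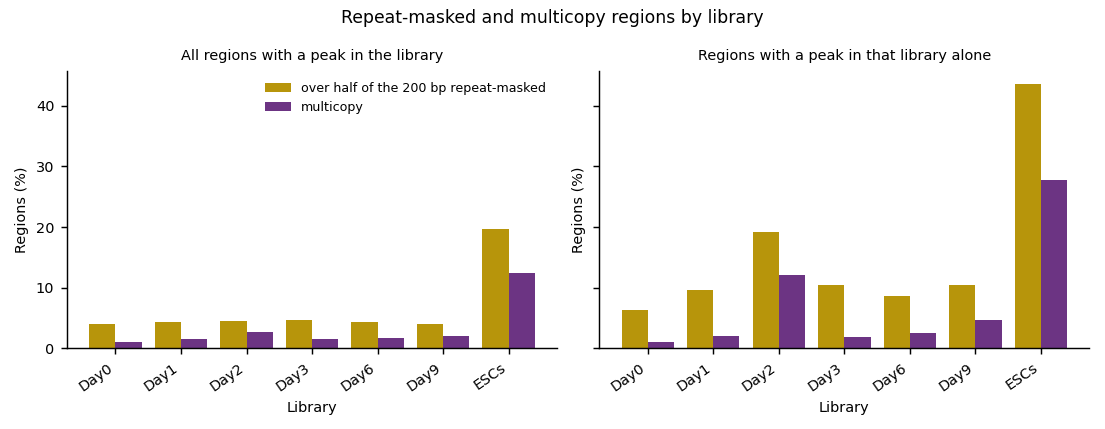
Percentage of regions whose 200 bp window is over 50% repeat-masked (gold) or multicopy (purple), by library, for all regions of a library (left) and for those with a peak in that library alone (right). Each bar is 1 library with no replicate. ESCs are highest in either panel, with 43.6% of the ESC-alone regions masked and 27.7% multicopy.

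The multicopy members differed from the single-copy ones in composition and place. Their median GC content was 64.5% against 49.5%, with a mean of 10.2 against 3.77 CpG per 200 bp. Only 1.32% were TSS-proximal against 10.7%, and 61.96% lay over 50 kb from a TSS against 27.3%. On chromosome X 252 of 385 members were multicopy. Chromosome X had the most multicopy members per Mb of chromosomes 1 to 19 and X (1.47) and the fewest single-copy members per Mb (0.778). ESC-alone regions made up 50.1% of the ESC regions on chromosome X and 30.4% on chromosome 11, the 2 ends of the range.

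The repeated members fell into families that share exact sequence. Members were grouped by the 24-base sequence found in the most ESC peaks, then by the next among the members left, down to 50 members. This gave 12 families with 2696 members, 26.5% of all, and 2239 of the 2813 multicopy members. The files hold no repeat annotation, so families are numbered by size. Family 1 held 1215 members, family 2 held 353 and family 3 held 304. Examples are shown 5′ to 3′ on the minus strand with the shared 24 bases in capitals, from family 1 (chr12:43037417-43037536), family 2 (chr5:109146527-109146646) and family 3 (chr2:24123502-24123621).
Family 1: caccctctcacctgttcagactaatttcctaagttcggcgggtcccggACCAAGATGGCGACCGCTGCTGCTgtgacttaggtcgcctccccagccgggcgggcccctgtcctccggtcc
Family 2: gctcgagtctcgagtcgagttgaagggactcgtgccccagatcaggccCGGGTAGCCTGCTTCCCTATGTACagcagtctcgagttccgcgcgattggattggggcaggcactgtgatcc
Family 3: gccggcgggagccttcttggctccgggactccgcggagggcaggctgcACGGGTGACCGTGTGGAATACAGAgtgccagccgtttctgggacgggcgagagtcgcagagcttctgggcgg
The sequence of family 1 occurs 6994 times in the genome, and 2391 of these copies (34.2%) lay under an ESC peak. Under the peaks of the MEF-derived libraries lay 1 copy on Day0, 1 on Day1, 14 on Day2, 0 on Day3, 5 on Day6 and 6 on Day9. Of the 1359 copies of the family 3 sequence, 871 (64.1%) lay under an ESC peak and 35, the most in another library, under a Day2 peak. Several copies can lie under 1 peak, as the 2391 copies of family 1 lay in 1234 ESC peaks. The members were chosen for lacking peaks in the other libraries, so these counts are a description. Another 19 ESC regions with the family 1 sequence and 31 with the family 3 sequence held a peak of another library too. Each member counts in a single family, but the sequences of several families can lie in the same member. The sequence of family 6 was found in 1170 members, of which 109 were left to count as family 6 after the larger families. The family 1 example holds the family 6 sequence on the opposite strand, so the numbered families need not be separate repeats. In families 1, 2, 3, 6 and 9, with 92.7 to 99.1% of members multicopy, no window held the Oct-Sox core, the octamer or the Klf letters, and 2, in family 3, held the Esrrb letters.

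Smaller families carried the letters of pluripotency factors, and families 7, 10 and 12 lay mostly in single-copy sequence. In family 7, with 104 members of which 11.5% were multicopy, the shared 24 bases themselves contain the Oct-Sox core, and the 200 bp window held it in 60 members (57.7%, 47.6 to 67.3%). In family 4, with 149 members, 114 windows (76.5%, 68.9 to 83.1%) held the octamer, the letters to which Oct4 binds alone. In family 10, with 62 members, 31 windows (50.0%) held the Esrrb letters and 50 (80.6%) the Zic letters, which lie inside its shared 24 bases. In family 12, with 54 members, 24 windows (44.4%) held the Esrrb letters and 39 (72.2%) the Zic letters. Over all merged regions the shares were 1.02% for the Oct-Sox core, 2.28% for the octamer, 1.34% for Esrrb and 7.73% for Zic. Among the widest members with the letters outside exons, examples are shown as 100 bases around the motif, with the motif in capitals and each read in the direction of the motif, at chr3:107996229-107996328 (plus) and chr15:59294722-59294821 (plus) for family 7.
Family 7 near Gstm2: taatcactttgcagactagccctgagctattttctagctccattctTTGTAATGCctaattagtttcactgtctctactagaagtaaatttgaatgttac
Family 7 near Sqle: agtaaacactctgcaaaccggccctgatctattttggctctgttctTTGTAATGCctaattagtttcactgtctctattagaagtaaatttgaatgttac
The family 4 examples lie at chr16:16367619-16367718 (plus) and chr4:125608811-125608910 (minus), the family 10 examples at chr13:13220570-13220669 (plus) and chr10:8114938-8115037 (minus), and the family 12 examples at chr6:61047728-61047827 (minus) and chr13:90869263-90869362 (minus). They show the octamer in family 4 and the Esrrb letters in families 10 and 12. The examples of families 10 and 12 closely resemble each other around these letters, so these families need not be separate repeats.
Family 4 near Dnm1l: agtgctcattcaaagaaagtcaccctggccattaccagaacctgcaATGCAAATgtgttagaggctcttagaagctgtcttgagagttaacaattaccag
Family 4 near Grik3: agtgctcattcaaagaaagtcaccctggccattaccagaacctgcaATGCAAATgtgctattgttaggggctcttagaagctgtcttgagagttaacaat
Family 10 near Prl2c5: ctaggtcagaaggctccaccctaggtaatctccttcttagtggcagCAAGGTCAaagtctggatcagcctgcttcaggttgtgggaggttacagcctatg
Family 10 near Tab2: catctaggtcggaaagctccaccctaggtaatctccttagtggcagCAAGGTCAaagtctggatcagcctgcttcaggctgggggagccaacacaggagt
Family 12 near Mmrn1: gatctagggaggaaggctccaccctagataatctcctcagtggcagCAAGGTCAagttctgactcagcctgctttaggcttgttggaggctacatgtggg
Family 12 near Atp6ap1l: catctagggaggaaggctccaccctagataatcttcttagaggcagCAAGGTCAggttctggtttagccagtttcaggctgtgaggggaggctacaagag
The 243 genome copies of the family 7 sequence lay under peaks in 127 cases in ESCs, 0 on Day0, 3 on Day1, 3 on Day2, 9 on Day3, 10 on Day6 and 17 on Day9. Of the 650 copies of family 8, 131 lay under an ESC peak, 0 on Day0, 21 on Day1, 14 on Day2, 33 on Day3, 22 on Day6 and 16 on Day9. The 276 copies of family 10 and the 283 copies of family 12 lay under ESC peaks in 68 and 60 cases and under no peak of the 6 other libraries. With 4.84% and 5.56% of their members multicopy, families 10 and 12 are mostly made of sequence in which 50 bases are found once in the genome. Family 5 was the CA dinucleotide repeat, and of the 55550 genome copies of family 11, 100 (0.180%) lay under ESC peaks and 135 under Day0 peaks.

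**Figure D3:**
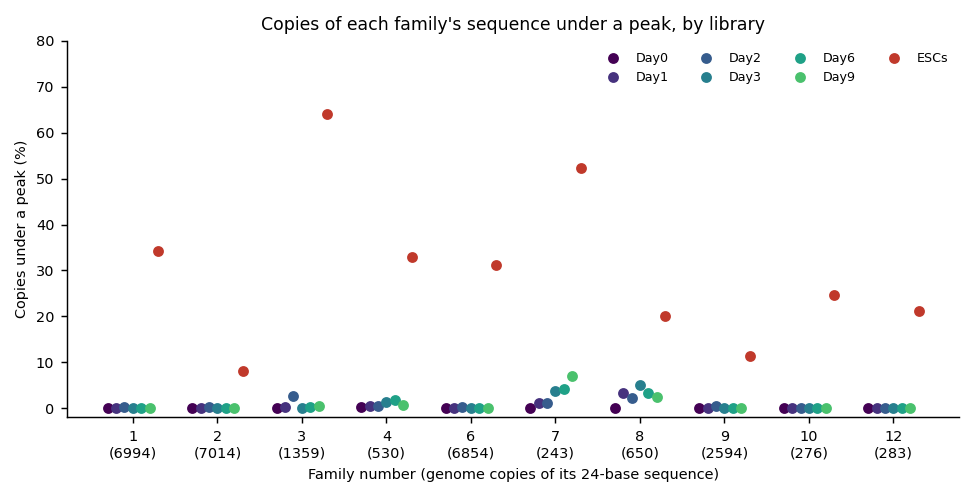
Percentage of the genome copies of each family's 24-base sequence that lie under a peak, by library, with the number of copies in brackets under the family number. Families 5 and 11, with the most copies, are left out. Each point is 1 library. ESC values run from 8.08% (family 2) to 64.1% (family 3), and of the plotted families only 10 and 12 have no copy under a peak of any other library.

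Motif letters were then compared in single-copy regions alone, in the 200 bp window and on either strand. The Oct-Sox core (TTGTNATGC) was in 205 of 7346 single-copy members, 2.79% (2.43 to 3.19%), against 0.449% of windows moved 1000 bp to either side, 0.347% of single-copy regions shared with day 0 and 3.41% of those shared with doxycycline days. The difference from day 0 regions was 2.44 points (2.07 to 2.86), on 20 of 20 chromosomes. The difference from doxycycline-day regions was -0.623 points (-1.42 to 0.0914), on 10 of 20 chromosomes in either direction, an interval that includes 0. Over 1000 bp from a TSS that difference was -0.841 points (-1.76 to -0.0224), and over all members, multicopy ones included, it was -1.10 points (-1.81 to -0.469). In the 6889 single-copy members outside the 12 families the Oct-Sox share was 2.13%, and the difference from the doxycycline-day class, from which no family was removed, was -1.28 points (-2.06 to -0.583). Over all members the Oct-Sox difference from other ESC regions was 1.19 points (0.880 to 1.52), and it fell to 0.138 points (-0.352 to 0.606) among regions over 1000 bp from a TSS. Among single-copy regions over 1000 bp from a TSS it was 0.868 points (0.297 to 1.44). Repeat-masked single-copy members held the core in 6.83% and unmasked ones in 1.51%, a difference of 5.33 points (4.18 to 6.63). Of the 205 windows, 121 were masked.

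The letters of Esrrb, an orphan nuclear receptor of the naive ESC network, were more frequent in single-copy ESC-alone regions than in either comparison class. CAAGGTCA was in 5.40% of single-copy members (4.90 to 5.95%), 0.750% of single-copy regions shared with day 0 and 1.86% of those shared with doxycycline days. The differences were 4.65 points (4.13 to 5.21) and 3.55 points (2.81 to 4.24), each on 20 of 20 chromosomes. Among regions over 1000 bp from a TSS they were 4.17 points (3.43 to 4.88) and 3.85 points (3.03 to 4.60). Among single-copy members outside the 12 families the Esrrb share was 4.88%, and 3.02 points (2.29 to 3.70) above the doxycycline-day class. Repeat-masked single-copy members held the letters in 9.71% and unmasked ones in 4.04%, a difference of 5.68 points (4.27 to 7.22). The matches gathered at the peak centre, with 16.9 per 1000 single-copy members in the 50 bp bin centred 75 bp to its left and 4.76 in the outermost bin on that side. In the doxycycline-day class the same bins held 5.97 and 4.64.

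Against the doxycycline-day class the other motifs gave smaller or opposite differences, whereas against the day 0 class some were larger than that of Esrrb. The Zic letters (CAGCAGG) were in 12.8% of single-copy members, 8.16% of the day 0 class and 10.2% of the doxycycline-day class, with a difference from the latter of 2.55 points (1.19 to 3.84). With multicopy regions included that difference was 0.0292 points (-1.16 to 1.15). The Sox letters (CNTTGTT) were in 18.2%, 6.25% and 21.01%, and 12.5% of the moved windows of single-copy members. Their difference from the day 0 class was 11.9 points (10.9 to 12.9), on 20 of 20 chromosomes, and 8.13 points (6.65 to 9.57) over 1000 bp from a TSS. For the Tead letters (GGAATG) the difference from the day 0 class was 8.99 points (7.98 to 10.01), on 20 of 20 chromosomes, and 1.62 points (-0.0314 to 3.23) over 1000 bp from a TSS. The Klf letters (CCACNCCC) were in 14.5%, 16.2% and 16.7%, lower than in the doxycycline-day class by -2.13 points (-3.72 to -0.605). The octamer (ATGCAAAT) was in 2.44%, 1.10% and 5.07%, and lower than in the doxycycline-day class on 19 of 20 chromosomes. The AP-1 letters (TGANTCA), bound by Jun and Fos proteins, were in 5.79% of single-copy members and 5.94% of their moved windows. They were in 5.59% of the day 0 class, 8.55% of the doxycycline-day class and 19.4% of all regions with no ESC peak. For these letters the difference from the day 0 class was 0.200 points (-0.460 to 0.881). Over 1000 bp from a TSS it was -8.94 points (-10.3 to -7.59). The CTCF letters (CCACNAG, any pair of letters, GGC) were in 0.286% of single-copy members, 1.10% of the day 0 class and 0.696% of the doxycycline-day class. Differences from the single-copy doxycycline-day class had intervals that include 0 for Tfcp2l1 (CCAG, any 6 letters, CCAG), Prdm14 (GGTCTCTAA), the E-box (CACGTG), Tead and Runx (TGTGGTT). Over all merged regions the shares were 12.8% for Sox, 10.2% for Klf, 15.9% for AP-1, 1.26% for CTCF, 2.59% for Tfcp2l1, 0.127% for Prdm14, 3.33% for the E-box, 15.0% for Tead and 5.38% for Runx. Of the 205 members with the Oct-Sox core, 69 windows also held the Sox letters and 6 the octamer, which can share bases with it. A match is a description of letters and not of binding. Split by ESC peak width, the Oct-Sox share was 1.23% in the narrowest of 3 equal groups of single-copy members, 1.92% in the next and 5.23% in the widest, and the Esrrb share 4.08%, 4.33% and 7.80%.

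**Figure D4:**
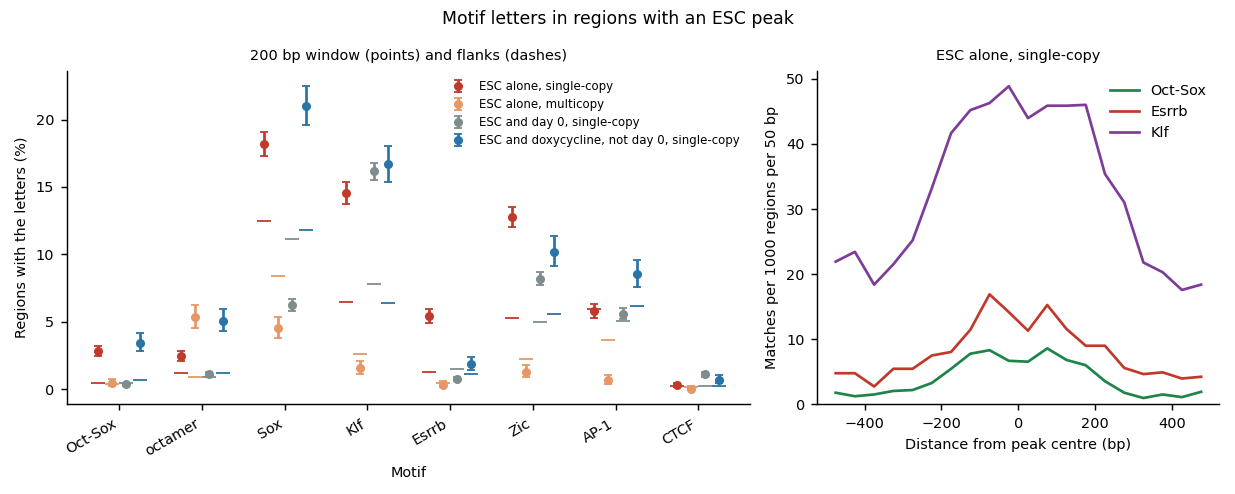
Left, percentage of regions whose 200 bp window holds the letters of each motif, with exact 95% intervals, and dashes for the same regions' windows moved 1000 bp. Right, matches per 1000 single-copy ESC-alone regions in 50 bp bins around the peak centre. Esrrb is the motif with 5.40% in single-copy ESC-alone regions against 0.750% and 1.86% in the comparison classes, and for Oct-Sox the intervals of the doxycycline class (3.41%) and of single-copy ESC-alone regions (2.79%) overlap.

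ESC-alone regions lay within 50 kb of a TSS of 15 of 20 core pluripotency genes, 75%, beside 40.3% of all 21951 protein-coding genes. For single-copy regions the count was also 15, beside 35.3%. Other lists gave 9 of 10 ESC markers, 14 of 20 genes of Nodal, FGF, LIF and BMP signalling, 13 of 17 germline and Dppa genes, 7 of 9 DNA methylation enzymes, 11 of 15 epithelial genes, 6 of 12 primed epiblast genes, 3 of 6 trophectoderm markers and 2 of 6 primitive endoderm markers. Of 10 fibroblast markers 6 had one too. The lists overlap and nothing particular to a list is read from these counts, and the median number of single-copy regions per gene was 1 for the core list and 0 for all protein-coding genes. All 9 microRNA genes found in the annotation, in the miR-290 and miR-302 clusters that ESCs express, had a member within 50 kb, but they belong to 2 loci.

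Esrrb had the most among core genes, with 5 ESC-alone regions. The member 172 bp from a TSS was 300 bp wide and held Klf, Esrrb and Tfcp2l1 letters. The others lay 1112, 2566, 3710 and 26064 bp from the nearest TSS, all in introns. No other kind of ESC region lay within 50 kb of an Esrrb TSS, where between 1 and 4 peaks were called in each MEF-derived library.

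Pou5f1 had 3, at 1979 bp and 15549 bp upstream and 30779 bp downstream of its nearest annotated TSS. The nearest of them was the 423 bp peak over the cloned element, 1762 bp from the closest other peak, on Day9. It was the only member at a core gene whose window held the Oct-Sox core. Klf2, Klf5, Tfcp2l1, Tbx3, Prdm14, Sall4, Nr0b1 and Tcl1 had 2 each. For Nr0b1 and Tcl1, a co-activator of Akt, no MEF-derived library had a peak within 50 kb, and 1 of the 2 members of each was multicopy. The Nr0b1 member in single-copy sequence, 4279 bp upstream, held the Esrrb letters. Nanog, Zfp42, Zscan10 and Gbx2 were among those with 1 each. The Nanog member lay 35105 bp from the nearest Nanog TSS and within 1000 bp of a TSS of another gene. The Gbx2 member lay 37195 bp away, in an exon. Both had the smallest width of 200 bp. Klf4, Nr5a2, Sox2, Stat3 and Utf1 had none. Sox2 and Nr5a2 had no ESC peak of any kind within 50 kb.

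At some loci no other peak lay near. Foxd3, a forkhead factor of the epiblast and neural crest, had 5 members within 50 kb, at 14026, 19685 and 20105 bp upstream and 14126 and 19090 bp downstream, and no peak of any other library there. Otx2, a homeobox factor of the primed epiblast, had 4 members within 50 kb, beside 0 to 2 peaks per MEF-derived library, and was the nearest gene to 8 single-copy members. Dppa2 and Dppa4, neighbours that encode chromatin-associated ESC proteins, shared 2 members and had no other peak in any library. The wider of these was 549 bp and lay 162 bp upstream of the Dppa2 TSS. The microRNA clusters had other peaks nearby. In the miR-290 cluster 5 members lay within 50 kb of Mir290a, the widest 756 bp, beside 2 ESC regions shared with doxycycline days and 1 to 3 peaks in each MEF-derived library. In the miR-302 cluster a 596 bp member lay 274 bp upstream of Mir302b, with 2 to 4 peaks within 50 kb in each MEF-derived library.

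**Figure D5:**
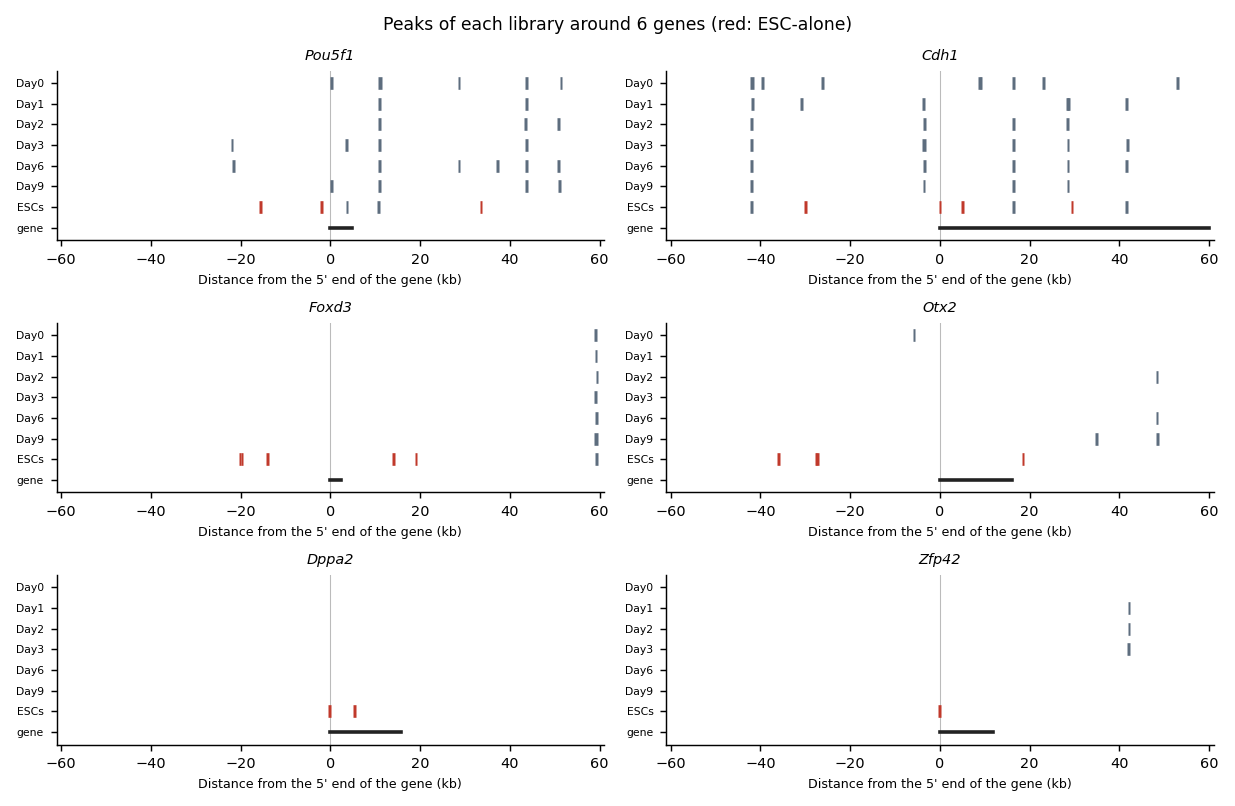
Peaks of the 7 libraries within 60 kb of the 5′ end of Pou5f1, Cdh1, Foxd3, Otx2, Dppa2 and Zfp42, by distance in kb in the direction of transcription, with ESC-alone peaks in red, other peaks in grey and the gene in black, and narrow peaks drawn wider than they are so that they can be seen. Around Dppa2 only ESC-alone peaks are present, and around Pou5f1 peaks of the other libraries lie on either side of the red peaks.

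At promoters, 798 protein-coding genes (3.64%) had an ESC-alone region within 1000 bp of a TSS. For 286 of them (35.8%) no MEF-derived library had a peak within 1000 bp of any TSS, which the rule required only over the region. Among listed genes these were the epithelial adhesion genes Cdh1 (20 bp from the TSS), Ocln (27 bp) and Cldn7, the germline genes Ddx4 (5 bp), Tex19.1 (96 bp) and Taf7l (316 bp), Dppa2, Zfp42, also known as Rex1 (162 bp), Zscan10 (545 bp) and the endoderm factor Sox17 with 2 regions (60 and 439 bp). The regions at Taf7l (200 bp wide) and Ocln (210 bp) and the narrower of those at Sox17 (220 bp) were at or near the smallest width. At Esrrb, Etv5, Fgf4, Tbx3 and Twist1, MEF-derived peaks lay within 1000 bp of a TSS too. The share of 35.8% was not set beside that of all protein-coding genes, so it is a description. Cdh1 had 4 members within 50 kb, Etv5, Grhl2, Cldn7 and Sall2 had 3, and Dnmt3b, Dnmt3l, Bmp4, Dppa5a and Epcam had 2.

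Members were spread over many genes. They were nearest, within 1000 kb, to 5810 protein-coding genes, of which 240 had 5 or more. The highest counts were 14 for Tbl1xr1, 13 for Zfhx3, 11 each for Dpp6, Etl4, Oxr1, Ptprg, Uqcrb and Zfp808, and 10 each for Elavl2 and Flrt2. Repeated sequence weighed on this order, with 9 of 10 multicopy at Flrt2, 7 of 10 at Elavl2 and 8 of 11 at Zfp808, against 0 at Zfhx3, Etl4 and Ptprg. All 8 at Zfp808 lay in unmasked sequence. Counts were not set against gene spacing. Among the 10 widest members, 8 were repeat-masked over the whole 200 bp window, and 7 of those had no unique stretch. The widest, 1692 bp on chromosome X, lay 154725 bp from Slitrk2. The 2 others were single-copy, a 1518 bp peak 988 bp from a TSS of Ppp2r3d and a 1260 bp peak 7144 bp from Pccb.

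A gap of at most 10 kb to another member was found for 19.9% (19.2 to 20.7%), against 20.1% of other ESC regions among themselves, a difference of -0.142 points (-1.13 to 0.859). The groups differ in number, which this share depends on, so the value is given side by side only. The largest chain held 5 members over 11475 bp, 108007 bp from Grik3, with no peak of another library inside it, and 1 of its members belongs to family 4. Chains of 4 lay near other genes, among them Sntg1, Vmn1r1, Ranbp17 and Tmem260. The 4 near Ranbp17 were all unmasked single-copy regions, and 1 peak was called between them on each of Day1, Day2 and Day3.

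Of the 66 putative Reprogramming-Inducible Enhancers (RIEs) listed by the study, 11 (16.7%) overlapped an ESC-alone region. They were the RIEs of Nodal, Upp1, Zscan10, Pou5f1, Gipc2, Tcea3, Fzd10, Phc1, Zfp568, Zfp819 and Izumo2, and Gipc2 held 2 members. For 7 of these no MEF-derived peak touched the RIE. At Upp1 peaks of Day0, Day1, Day2, Day3 and Day6 lay elsewhere in the 867 bp RIE, and the 457 bp ESC peak met none of them. At Phc1 all 6 other libraries had a peak in the RIE of 3581 bp. The study took its RIEs from sites bound by the reprogramming factors near TSSs of genes expressed more in ESCs than in MEFs. The overlap was not counted for the other ESC regions or for other sites near a TSS, so 16.7% is a description.

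Members nearest to another library's peak had gaps of 1 bp (near Ces1h), 2 bp (near Lemd2) and 3 bp. The regions just outside had an ESC peak that met another peak by 1 bp (near Eef1a1), 2 bp (near Cryl1 and Ddx58), 3 bp and 4 bp. In all 133 members had another peak within 50 bp, and 1098 (10.8%) within 1000 bp. The median gap to the nearest peak of any other library was 6414.5 bp for single-copy and 26579 bp for multicopy members. The number of members with a peak within 1000 bp ran from 351 for Day2 to 615 for Day0, or 10.0 to 11.8 per 1000 peaks of a library.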

How the data were processed

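Each library had 1 deposited list of peak coordinates, with no score, count or signal. Per the methods, the authors cut paired reads to 50 bp (Trimmomatic) and placed them on mm10 (Bowtie2). Duplicates were then dropped (Picard) and the authors downsampled all libraries to the same unstated depth and called peaks per library with MACS2, with no pooling. A lower depth or a stricter threshold gives fewer peaks, so absence depends on the depth and threshold used for all libraries.

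Touching or overlapping peaks were merged, and the 104346 regions were identical to those of BEDTools 2.31.1. On simulated data 1500 of 1500 planted ESC-alone regions and 100% of planted motifs were found. Windows of 200 bp around the ESC peak centre were read from GRCm38.p6 with soft-masking, and genes from GENCODE release M21 (Python 3.11.15, numpy 2.4.6, scipy 1.17.1, pysam 0.24.0, samtools 1.23.1, matplotlib 3.10.9). Positions count from 1. Stretches of 50 bases began every 10 bases of a window, and their copies were counted in the genome. Shares carry exact (Clopper-Pearson) 95% intervals and differences carry Newcombe intervals, for counting error only, with the sign per chromosome. In all 13 motifs were searched, with no adjustment for their number.

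The members, gene lists and motifs were chosen with earlier results of these data known, and the families and the single-copy split were chosen after the values were seen. Named genes were listed genes with a member within 50 kb (the 20 with most, and all core genes), the 10 nearest genes with most members, the 10 widest members, the 5 largest chains and the RIEs over members. RIE positions came from the study's list and the cloned elements from its sequences, matched to the genome. A listed microRNA, Mir292a, was not matched in the annotation. A few items that the rule names are not reported here. Promoter, protein and microRNA sequence tables were not used.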

Additional observations from a re-analysis of the deposited data

How the results depend on the processing

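The 6 summary measures were recomputed under alternatives set at the outset and under 2 added after the data were seen (single-copy regions, and regions not repeat-masked). Of 63 values, 52 kept their direction and, where they had an interval, their side of 0, or moved little. The size of the Oct-Sox difference (1.19 points) did depend on the setting, with 0.446 points in 100 bp windows, 2.06 in 300 bp windows, 2.07 with peaks of at least 300 bp, 1.84 in single-copy regions and 0.797 in regions not masked. Keeping peaks of at least 300 bp gave 6088 ESC-alone regions, a median width of 468 bp and 9.49% of regions within 10 kb of another. Leaving out repeat-masked regions gave 5728 regions. The share within 10 kb of another was 11.3% after merging within 300 bp, 21.2% with the same number of widest peaks, 17.5% in single-copy regions, 14.8% in regions not masked, 13.8% within 5 kb and 33.5% within 25 kb; the last 2 follow from the distance itself. The Oct-Sox difference over TSS-distal regions was 0.138 points (-0.352 to 0.606), and the cause was not tested. Core genes with a member numbered 10 within 20 kb and 18 within 100 kb. No difference reversed. Leaving any 1 MEF-derived library out of the rule gave 10318 to 10545 regions.

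No paired analysis was possible because each group has a single library. With 1 library per time-point, leaving a replicate out was not possible either. Depth is unknown, and no limit can be put on how often a region without a peak was open below the calling threshold.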
